A study of Mus musculus with 21 samples.

Results

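Lysosomal hydrolases, proteins of the lysosomal membrane and subunits of the vacuolar proton pump (V-ATPase) were examined as 1 list of 46 genes in the spinal cord of mice that lack TDP-43 in the oligodendrocyte lineage. The genes were taken from a list of symbols by role, which was chosen with earlier results of these data known. Of the 46, 45 had a value in each library, and all 45 reached 5 normalized reads per base in at least 3 of the 21 libraries, as did 18695 of the 25127 genes with values. The 45 were 21 hydrolases (12 glycosidases, with the GM2 activator among them, 5 sulfatases, 2 lipid hydrolases and 2 peptidases), 4 membrane proteins, 19 V-ATPase genes and the transcription factor Tfeb. The other listed gene, Atp6v1c1, a V1 subunit, had no value per library and is described from the authors' deposited table.

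The study deleted Tardbp, the gene of TDP-43, with Cnp-Cre, and sequenced RNA of whole spinal cord from C57BL/6 mice. The knockout (cKO) carried Cnp-Cre and Tardbp-fl/fl, the heterozygous knockout (cHET) carried Cnp-Cre and Tardbp-fl/+, and the control carried Tardbp-fl/fl with no Cre, so all groups carry at least 1 floxed allele. At postnatal day 21 (P21) there were 4 mice of each genotype, 2 female and 2 male. At day 60 (P60) there were 3 of each. The cKO mice then were male and 61 to 64 days old, the cHET mice male and 60 to 65 days old, and the control mice female and 74 days old. A comparison of cKO with control at P60 is therefore also one of males with older females, and genotype, sex and age cannot be told apart. The comparison of cKO with cHET, in which both genotypes carry Cre and differ in the second floxed allele, is the main one here. Cre driven from the Cnp locus acts in cells of the oligodendrocyte lineage. In RNA of a whole tissue, fewer cells of a type and less RNA per cell cannot be told apart.

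Lysosomes break down sugars, lipids, glycosaminoglycans and proteins with hydrolases that work at acid pH. The V-ATPase pumps the protons: its V1 sector splits ATP in the cytosol, its V0 sector carries protons through the membrane, and several of its subunits exist as paralogues used in different cell types. Membrane proteins such as LAMP1 and LAMP2 line the organelle, and transcription factors of the TFEB family bind E-box motifs in the promoters of many of these genes. In the nervous system lysosomes are prominent in neurons and in phagocytic microglia, which take up myelin debris, and the loss of many of these enzymes causes storage diseases that affect brain and spinal cord.

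All levels below are normalized reads per base, a value per gene length that the authors scaled within each age, so that genes can be compared with each other within an age. The libraries held values above 0 for 20366 to 20880 genes at P21 and for 19645 to 20138 at P60, and sequencing depth is not known. P21 and P60 libraries were made with different kits, and their levels are not compared. Values of 1 group are listed by library from replicate 1 on, and at P21 replicates 1 and 4 were female and 2 and 3 male. Mitochondrial genes took 6.40% to 8.12% of the summed values at P21. At P60 they took 14.6% to 17.9% in cKO libraries, against 11.4% to 16.2% in cHET libraries and 10.2% to 16.1% in controls. Tardbp itself stood at 1731, 1880.5, 1753 and 1639 in cKO cords, against 2068, 2236, 2030.2 and 2231 in cHET and 2198, 2283, 2415 and 2155 in control cords at P21, and fell by 0.29 on the log2 scale against cHET (adjusted p = 0.0025). At P60 it was 831, 794 and 783 in cKO, 925, 932 and 906 in cHET and 828, 884 and 937 in control cords, with an overlap between cKO and control, and fell by 0.20 against cHET (adjusted p = 0.040). Cnp, whose locus carries Cre in both Cre genotypes, stood at 47387 to 57530.2 in cKO cords, against 44181 to 49396 in cHET cords and 76936 to 88022 in controls at P21. Changes are differences of log2(value + 0.5) with their standard error (SE), tested with limma across all genes of an age and adjusted by Benjamini-Hochberg over all of them. A gene is said to have risen or fallen where its adjusted p was under 0.05.

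In P21 cKO cords 19 of the 45 genes rose and 4 fell against cHET. Over all 17989 genes tested in that comparison, 22.6% were called, 12.6% higher and 9.97% lower. The median log2 change was 0.12 over the 45 genes and -0.01 over all genes. The rises lay mostly among the hydrolases: 13 of 21 rose, 1 fell and 7 did not pass the test, with a median change of 0.40. Of the 19 V-ATPase genes, 5 rose and 3 fell, with a median of -0.06. Of the 4 membrane proteins 1 rose. At P60 21 of the 45 genes rose and 3 fell in cKO against cHET, where 13.4% of all 16833 genes rose and 11.5% fell (25% in all). Among them were 13 hydrolases that rose and 2 that fell (median 0.55), 5 V-ATPase genes that rose and 1 that fell (median 0.06) and 3 membrane proteins that rose, and the medians over the 45 genes and over all genes were 0.19 and 0.00. In the P21 comparison all 4 cKO libraries lay above all cHET libraries for 18 of the 45 genes and below them for 5, as they did for 12.7% and 9.87% of all genes (22.6% together). At P60 the cKO lay above for 22 and below for 6, against 20.6% and 18.9% of all genes (39.5% together). The counts of rises and of libraries lying above include Atp6v0d2, which passed the filter only through the cKO libraries. The authors' deposited table, in which Atp6v1c1 was tested and Atp6v0d2 was not listed, called 18 of these genes higher and 4 lower at P21, and 19 higher and 4 lower at P60. The shares over all genes given above belong to the limma fits. The share in that table is not given, so these counts cannot be set against it.

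**Figure D1:**
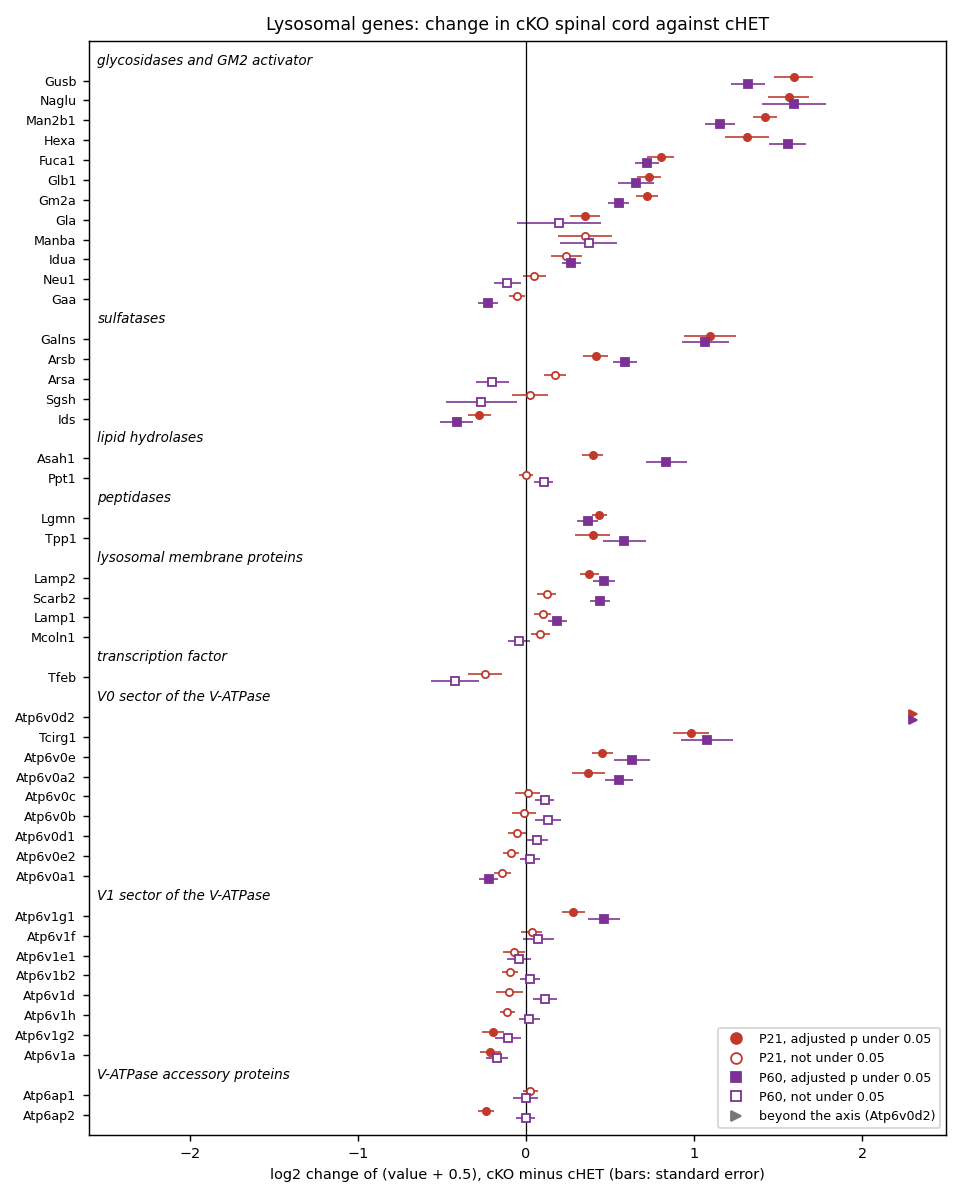
Log2 change of each of the 45 genes in cKO against cHET spinal cord (x axis; bars are the SE of the fit), grouped by role, at P21 (circles, 4 mice each) and P60 (squares, 3 mice each). Filled symbols have an adjusted p under 0.05. Gusb, Naglu, Man2b1, Hexa and Galns lie above 1 at both ages, most V-ATPase genes lie near 0, and Atp6v0d2, at 6.45 and 7.28, is beyond the axis.

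Markers of other cell types were read in the same libraries, as cKO against cHET. Over all genes tested in these comparisons, 12.6% rose and 9.97% fell at P21, and 13.4% rose and 11.5% fell at P60. Of 16 markers of microglia and macrophages, 13 rose and 1 fell at P21 (median 2.52), among them C1qc by 2.79, C1qa by 2.81 and Tyrobp by 3.18. Their summed level was 54237 to 72815 in P21 cKO libraries, against 15273 to 17195 in cHET libraries and 14808 to 16695 in controls. At P60 it was 26914 to 36663 in cKO libraries, against 7648 to 8020 in cHET libraries and 6606 to 7785 in controls, and 13 of the 16 rose and 3 fell. No marker of this list was at 0 in any group. Of 9 astrocyte markers 6 rose and 1 fell at P21 and 4 rose and 1 fell at P60, with P21 sums of 328274 to 376105 in cKO libraries, against 181414 to 189524 in cHET libraries and 172179 to 182459 in controls. Of 14 neuron markers 0 rose and 10 fell at P21 and 6 fell at P60, with changes of -0.39 for Gad1, -0.45 for Gad2 and -0.31 for Slc17a6 at P21. The neuron sums were 320344 to 368915 in cKO libraries, against 386382 to 417153 in cHET libraries and 374577 to 457323 in controls at P21, and at P60 they were 177633 to 206186 in cKO libraries, against 193776 to 206733 in cHET libraries and 191683 to 204847 in controls.

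Of 13 markers of mature oligodendrocytes, 2 rose and 9 fell at P21 and 2 rose and 11 fell at P60. Their sums were 1788520 to 2102710 in cKO libraries, against 2368420 to 2648270 in cHET libraries and 2114430 to 2414240 in controls at P21, and 299135 to 356440 in cKO libraries, against 510151 to 587794 in cHET libraries and 423810 to 471020 in controls at P60. In P21 cKO against cHET the median change of these markers was -0.42, and the largest rise was 0.33. Gjb1, Hapln2 and Klk6, named because they had the smallest P21 p of this list, changed by -1.45, -1.21 and -3.78. No marker of neurons, astrocytes or oligodendrocytes was at 0 in any group. Of 6 monocyte genes 5 were tested at P21 and 2 rose, and their sums were 5704 to 7591 in cKO libraries, against 2608 to 3307 in cHET libraries and 2348 to 2700.0 in controls. Of 8 osteoclast genes 7 were tested at P21, and 1 rose and 2 fell. Their P21 sums were 1270 to 1460 in cKO libraries, against 1593 to 1727 in cHET libraries and 1528 to 1702 in controls. The P60 sums did not lie lower in cKO libraries, with 596 to 663, against 558 to 610 in cHET libraries and 524 to 586 in controls. Of 13 markers of T cells, B cells and neutrophils 9 were tested at P21 and 1 rose, a count close to the 12.6% of all genes that rose. Their P21 sums were 134 to 149 in cKO libraries, against 86.9 to 141 in cHET libraries and 101 to 174 in controls. The neutrophil marker Ly6g was at 0 in all P21 cHET and P21 control libraries and in all P60 cKO and P60 cHET libraries. The part of these cell types in the changes of the lysosomal genes was not tested.

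Promoter sequence was set beside these changes because the family of TFEB binds the letters TCACGTG, an E-box (CACGTG) with a T before it. RefSeq windows of 300 bases (250 before and 50 after each annotated start site, GRCm38.p6) were held for 38 of the 46 genes. TCACGTG stood on either strand in 13 of the 38 (34.2%), against 1160 of 27025 genes of the table (4.29%), and the shorter CACGTG, which it contains, in the same number of the listed genes and in 2187 (8.09%) of the table. In P21 cKO against cHET the letters stood in 5 of the 14 genes that rose and have a window, in 1 of the 4 that fell and in 7 of the 20 that did not pass the test. At P60 the counts were 5 of 16, 1 of 3 and 7 of 19. No window was held for Atp6v0d2, Galns, Asah1, Atp6v0a2, Atp6v1b2, Atp6v1c1, Atp6v1g1 and Atp6v1h. The stretches below are shown so that genes that rose (Naglu, Glb1, Atp6v0e), 1 that fell at P21 (Atp6v1a) and 1 that passed no test against cHET (Mcoln1) can be read against each other. Only windows with a match are shown. The windows of Gusb, Hexa and Man2b1, which also rose at both ages, hold no TCACGTG on either strand. Capitals mark the first TCACGTG of the window, written on to TCACGTGA where the reverse strand holds it too. The stretch of Mcoln1 holds a second match, left in lower case.
Naglu, chr11:101069991-101070056, plus strand: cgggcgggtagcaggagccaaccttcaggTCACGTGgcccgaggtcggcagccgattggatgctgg
Glb1, chr9:114401000-114401065, plus strand: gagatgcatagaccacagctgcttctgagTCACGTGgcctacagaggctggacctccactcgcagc
Atp6v0e, chr17:26676369-26676434, plus strand: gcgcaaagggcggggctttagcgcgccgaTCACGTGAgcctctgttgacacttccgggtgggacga
Atp6v1a, chr16:44139355-44139420, minus strand: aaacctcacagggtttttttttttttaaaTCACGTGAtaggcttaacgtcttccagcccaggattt
Mcoln1, chr8:3500418-3500483, plus strand: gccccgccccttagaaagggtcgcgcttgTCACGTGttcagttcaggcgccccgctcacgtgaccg

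The first CACGTG of each stretch began at position -73 from the start site in Naglu, -48 in Glb1, 3 in Atp6v0e, -131 in Atp6v1a and -71 in Mcoln1. A run of letters is a description of the window, not a bound site.

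Among the glycosidases, 4 genes more than doubled on the scale of the fit. Gusb, the beta-glucuronidase that removes glucuronic acid from glycosaminoglycans, stood at 1878, 2611, 2581 and 2022 in cKO cords, against 716, 723, 870.1 and 688 in cHET and 807, 688, 684 and 812 in control cords at P21. Every cKO library lay above every cHET and control library, and the male cKO libraries, 2 and 3, lay above the female ones. The change against cHET was 1.59 ± 0.11 (adjusted p = 1.4e-07), a 3.01-fold difference. At P60 Gusb stood at 917, 933 and 738 in cKO cords, against 353, 361 and 317 in cHET and 299, 317 and 342 in control cords, again with no overlap, and the change was 1.32 ± 0.10 (adjusted p = 3.7e-06). Naglu, the alpha-N-acetylglucosaminidase that acts on heparan sulfate, was the least abundant hydrolase of the list in P21 control cords. It stood at 391, 442, 456 and 440.0 in cKO cords, against 143, 118, 172 and 156 in cHET and 135, 120.3, 154 and 146 in control cords. No cKO library overlapped with another genotype. The P21 rise of Naglu was 1.56 ± 0.12 (adjusted p = 4.0e-07). The P60 rise was 1.59 ± 0.19 (adjusted p = 1.2e-04), where its values were 169.5, 179 and 152 in cKO cords, against 40.4, 64.7 and 62.8 in cHET and 56.1, 43.3 and 44.1 in control cords.

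Hexa, the alpha subunit of beta-hexosaminidase A, which cleaves GM2 ganglioside, had the largest coefficient of variation among P21 cKO libraries after Atp6v0d2, at 25.5%. Its P21 values were 3719, 5372, 6233 and 3836 in cKO cords, against 1954, 1745, 2022 and 1809.5 in cHET and 1719.8, 1819, 1638 and 1769 in control cords. The cKO libraries 2 and 3, male, lay above libraries 1 and 4, female, and all 4 lay above the other genotypes. Hexa rose by 1.31 ± 0.13 (adjusted p = 4.3e-06). At P60, when all cKO mice were male, it was 2650.3, 2893 and 2094 in cKO cords, against 820.1, 941 and 819 in cHET and 776, 878 and 799 in control cords, a rise of 1.56 ± 0.11 (adjusted p = 2.2e-06). Man2b1, the lysosomal alpha-mannosidase, had the smallest adjusted p of the list at P21. It stood at 3689, 3977, 3775 and 3185 in cKO cords, against 1309, 1349.6, 1372 and 1419 in cHET and 1312, 1538, 1436 and 1449 in control cords, and rose by 1.42 ± 0.07 (adjusted p = 4.4e-09). At P60 the values of Man2b1 were 1363, 1339.7 and 1193 in cKO cords, against 551, 627 and 572 in cHET and 539, 607 and 499.5 in control cords, a rise of 1.15 ± 0.09.

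Smaller rises at both ages were seen for Fuca1 (alpha-fucosidase), Glb1 (beta-galactosidase) and Gm2a, the activator protein that presents GM2 to hexosaminidase A. Fuca1 rose by 0.80 and 0.72 at P21 and P60, and its P21 range was 871 to 1016 in cKO cords, against 497 to 541 in cHET cords and 486 to 606 in controls. Glb1 rose by 0.73 and 0.65, with 1602 to 1986 in cKO cords, against 1022 to 1165 in cHET cords and 1099 to 1216 in controls. Gm2a, the most abundant gene of this class, rose by 0.72 and 0.55, with 7079 to 8460.1 in cKO cords, against 4498 to 5076 in cHET cords and 4817 to 5486 in controls. None of these 3 genes overlapped between cKO and the other genotypes at P21.

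The 5 remaining glycosidases passed the test against cHET at 1 age or at none. Gla, the alpha-galactosidase A that acts on globotriaosylceramide, rose by 0.35 ± 0.09 at P21 (adjusted p = 0.011; 0.157 when all 6 groups were fitted together) and was at 0.20 ± 0.25 at P60 (adjusted p = 0.63). Idua, the alpha-iduronidase, rose by 0.27 ± 0.06 at P60 (adjusted p = 0.0060; q = 0.061 in the authors' deposited table) and differed by 0.24 ± 0.09 at P21 (adjusted p = 0.084). Manba, the beta-mannosidase, did not pass against cHET (0.35 and 0.37, adjusted p = 0.15 and 0.14), but was 97.1, 84.0 and 120.5 in P60 cKO cords against 61.4, 63.2 and 61.0 in P60 controls (0.68, adjusted p = 0.013). Neu1, the sialidase, was at 0.05 and -0.11 (adjusted p = 0.68 and 0.37). Gaa, the alpha-glucosidase that degrades glycogen, went the other way at P60: it stood at 1801, 1779 and 1634 in cKO cords, against 2076, 2029 and 1991 in cHET and 1917, 2064 and 2111 in control cords and fell by 0.23 (adjusted p = 0.018). Without cHET 1, cHET 2 or cKO 3 the adjusted p of Gaa was 0.063, 0.052 or 0.062.

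The 5 sulfatases, which remove sulfate from glycosaminoglycans and sulfolipids, split into genes that rose, fell and did not pass. Galns, which acts on keratan sulfate, stood at 684, 732, 615 and 617 in cKO cords, against 327, 231, 343 and 353 in cHET and 294, 253, 272 and 411 in control cords at P21 and rose by 1.09 ± 0.16 (adjusted p = 1.3e-04). Its P60 values were 322, 268 and 259.9 in cKO cords, against 115, 168 and 125 in cHET and 122, 124 and 117 in control cords, a rise of 1.07 ± 0.14 (adjusted p = 2.5e-04). No library of the cKO overlapped with the other genotypes at either age. Arsb, which acts on dermatan sulfate, rose by 0.41 ± 0.07 at P21 and 0.59 ± 0.07 at P60 (adjusted p = 9.1e-04 and 1.3e-04), with 2629 to 2819 in P60 cKO cords against 1719 to 1953 in cHET and 1656 to 1901 in control cords.

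Ids, the iduronate-2-sulfatase, was the only gene of the 45 that fell against cHET at both ages. At P21 it stood at 7346, 7144, 7344 and 6108 in cKO cords, against 8671, 8760.4, 8762 and 7641 in cHET and 8743, 8573, 8878 and 7787 in control cords, and replicate 4 was the lowest of its group in all 3 genotypes. It fell by 0.28 (adjusted p = 0.0100; 0.058 after quantile normalization). At P60 the values were 3399, 3797 and 4263 in cKO cords, against 5390.1, 5105 and 4719 in cHET and 4106, 4976 and 4827 in control cords. There it fell by 0.41 against cHET (adjusted p = 0.0090) and was at -0.28 against control (adjusted p = 0.055). Arsa, which removes sulfate from the myelin lipid sulfatide, was at 0.17 at P21 and -0.20 at P60 (adjusted p = 0.071 and 0.18), and Sgsh, which acts on heparan sulfate, at 0.03 and -0.27 (adjusted p = 0.90 and 0.42).

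Of the lipid hydrolases and peptidases, 3 of 4 rose at both ages. Asah1, the acid ceramidase, stood at 1282, 1275, 1223 and 1229 in cKO cords, against 863, 1004, 965 and 981 in cHET and 911, 987, 944 and 1012 in control cords at P21, a rise of 0.40 ± 0.06 (adjusted p = 2.8e-04). At P60 it was 725, 724 and 707 in cKO cords, against 335, 397 and 492 in cHET and 509, 433 and 463 in control cords, and rose by 0.83 ± 0.12 (adjusted p = 4.4e-04). The cKO libraries lay close together at both ages, while the P60 cHET libraries spread. Lgmn, the asparaginyl endopeptidase legumain, was the most abundant hydrolase gene in P21 controls, and rose by 0.44 ± 0.04 at P21, with 12683, 13840.1, 13329 and 13506 in cKO cords against 9766, 9735, 9908 and 10023 in cHET and 9707, 9326, 9165 and 9395 in control cords, and by 0.37 ± 0.06 at P60. Tpp1, the tripeptidyl peptidase, rose by 0.40 and 0.58 (adjusted p = 0.012 and 0.0062), and its P21 cKO values, 1459, 2052, 1901 and 1548, overlapped with 1220.5, 1463, 1359 and 1212 in cHET cords. Ppt1, which removes palmitate from proteins, was at 0.00 and 0.10 (adjusted p = 0.995 and 0.22), with P21 ranges of 3641 to 3838 in cKO cords, against 3686 to 3748 in cHET cords and 3642 to 3843 in controls.

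**Figure D2:**
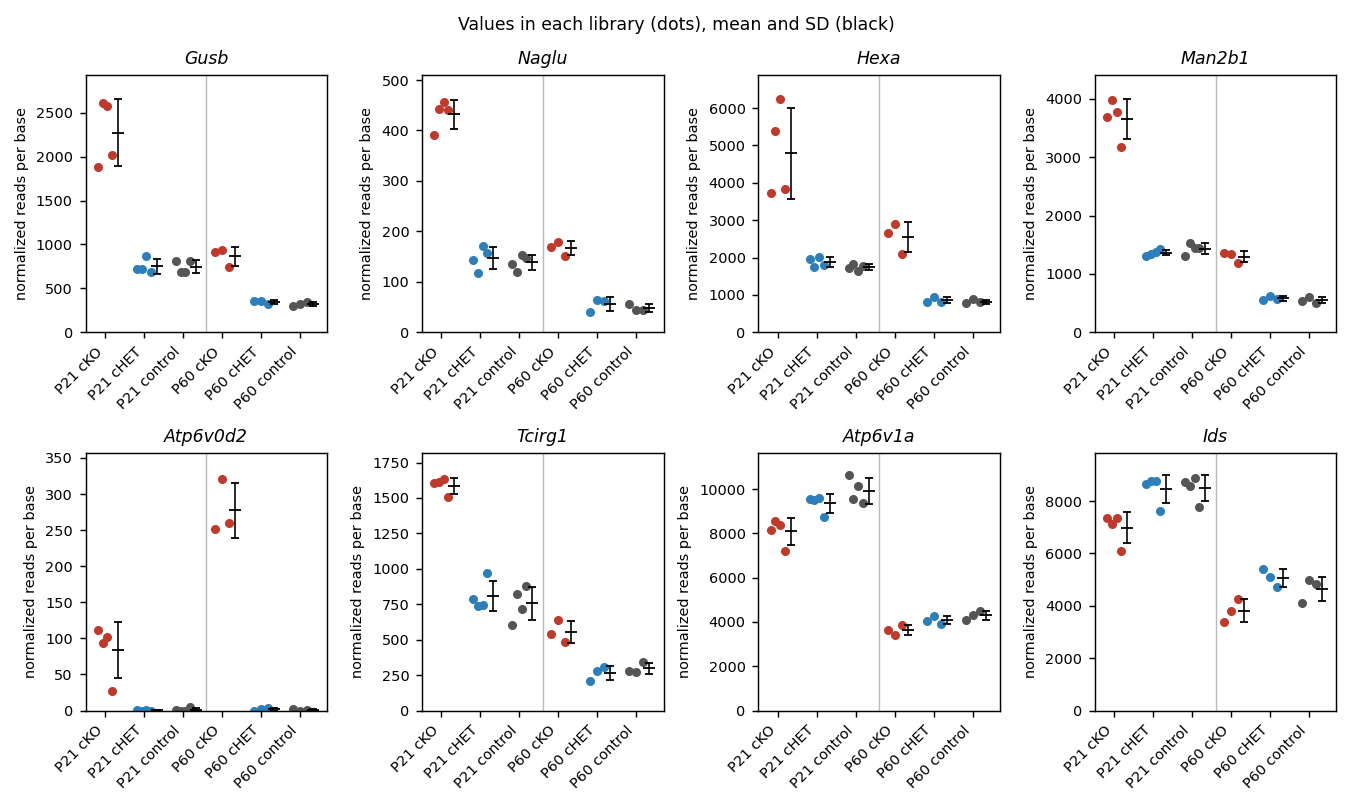
Normalized reads per base of 8 genes (y axes, each from 0) in every library of the 6 groups (x axis), with the group mean and SD in black; P21 groups hold 4 libraries and P60 groups 3. For Gusb, Naglu, Hexa, Man2b1, Atp6v0d2 and Tcirg1 the cKO libraries of an age lie above the other 2 genotypes, and for Atp6v1a and Ids the P21 cKO libraries lie below them.

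Of the 4 proteins of the lysosomal membrane, 1 rose at P21 and 3 at P60. Lamp2, which lines the lysosome and serves chaperone-mediated autophagy, rose at both ages. The changes were 0.38 ± 0.05 at P21 and 0.46 ± 0.07 at P60, with an adjusted p of 1.4e-04 and 4.0e-04. It stood at 7153, 8014, 8044 and 6989.6 in cKO cords, against 5712, 5940.3, 5685 and 5882 in cHET and 5794, 5853, 5475 and 5833 in control cords at P21. Lamp1, the most abundant of all 45 genes in P21 controls, had 22918, 24442, 24996 and 22661 in P21 cKO cords, against 23013, 22598, 21129.9 and 22001 in cHET and 21043, 20972, 19739 and 20968 in control cords. Its difference from cHET was 0.10 ± 0.05 at P21 (adjusted p = 0.19; 0.0064 after quantile normalization) and it rose by 0.19 ± 0.06 at P60 (adjusted p = 0.035), a call that ended without control 3, cHET 1, cHET 3, cKO 1 or cKO 2 (adjusted p = 0.051, 0.107, 0.081, 0.097 or 0.120). Mcoln1, the cation channel TRPML1, was at 0.08 and -0.04 (adjusted p = 0.33 and 0.70).

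Scarb2 encodes LIMP-2, which carries glucocerebrosidase to the lysosome, and was the only 1 of the 45 genes whose change in cKO against cHET differed between the ages by the interaction test, in which 2.71% of 18695 genes were called (1.27% with a higher value at P60). At P60 its values were 5921, 6319.8 and 5984 in cKO cords, against 4261, 4682 and 4481 in cHET and 4027, 4417 and 4295 in control cords, a rise of 0.44 ± 0.06 (adjusted p = 2.5e-04). At P21 they were 8039, 8679, 8822 and 7553 in cKO cords, against 7451, 7964, 7757 and 7183 in cHET and 7836, 7798, 7392 and 7459.9 in control cords, with an overlap, and a difference of 0.12 ± 0.06 (adjusted p = 0.14). The P60 change exceeded the P21 change by 0.32 ± 0.08 (adjusted p = 0.036). The interaction was not called after quantile normalization (adjusted p = 0.095), with no filter on low values (0.051), or without any 1 of P21 cHET 1, 2 or 3, P21 cKO 1 or 4, P60 cHET 1 or 3, or P60 cKO 1, 2 or 3 (adjusted p 0.051 to 0.113). Age, library kit and the sexes of the mice differ together between the 2 sets and cannot be told apart.

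In the V0 sector, 4 of 9 genes rose at both ages. The largest change of the list was in Atp6v0d2, the d2 subunit, known from osteoclasts and macrophages. It was close to 0 outside the cKO: at P21 it stood at 112, 93.8, 102 and 27.1 in cKO cords, against 1.01, 0, 0.878 and 0 in cHET and 0.693, 0, 0 and 4.23 in control cords, and at P60 at 252, 321 and 259 in cKO cords, against 0, 2.09 and 3.85 in cHET and 1.79, 0 and 0.590 in control cords. Library cKO 4 was the lowest of the P21 cKO, above every library of the other genotypes. Only cKO libraries reached the filter value of 5, so the gene was tested because it is high there. Its fitted change and adjusted p are therefore no separate support for a rise. The fitted change was 6.45 ± 0.79 at P21 and 7.28 ± 0.77 at P60 (adjusted p = 3.3e-05 and 4.2e-05), but with values this low it depended on the pseudocount, and was 3.86 and 5.37 with a pseudocount of 5 and 8.37 and 8.53 with 0.05. Atp6v0d1, the paralogue that most tissues use, was at -0.06 and 0.06 (adjusted p = 0.52 and 0.54). Atp6v0d2 made up 0.516% to 2.42% of the summed value of the pair in P21 cKO libraries, up to 0.0198% in cHET and up to 0.0875% in control libraries. At P60 the share was 10.7% to 13.7% in cKO, up to 0.209% in cHET and up to 0.0958% in control libraries.

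Tcirg1, the a3 subunit, found in lysosomes of osteoclasts and macrophages, stood at 1603, 1609, 1632 and 1505 in cKO cords, against 787, 735, 745 and 968 in cHET and 606, 823, 716 and 876 in control cords at P21. All cKO libraries lay above the others, and the rise was 0.98 ± 0.11 (adjusted p = 1.3e-05). At P60 it was 539, 637 and 486 in cKO cords, against 207, 279 and 307 in cHET and 279.7, 271 and 345 in control cords, a rise of 1.08 ± 0.16 (adjusted p = 4.3e-04). Atp6v0a2, the a2 subunit, rose by 0.37 ± 0.10 at P21 (adjusted p = 0.014; 0.052 without cKO 2) and 0.55 ± 0.08 at P60 (adjusted p = 5.7e-04). Atp6v0a1, the a1 subunit, prominent in neurons, fell by 0.22 at P60 (adjusted p = 0.017) and was at -0.14 at P21 (adjusted p = 0.061). The P60 call ended without cHET 1, cHET 2, cKO 1 or cKO 2 (adjusted p = 0.071, 0.052, 0.070 or 0.056). Of the summed value of the 3 a subunits, Tcirg1 made up 15.4% to 16.0% in P21 cKO libraries, against 7.09% to 9.93% in cHET libraries and 5.67% to 9.02% in controls. Atp6v0a1 made up 75.4% to 77.9% in cKO libraries, against 84.4% to 87.3% in cHET libraries and 85.1% to 88.0% in controls at the same age. At P60 the share of Tcirg1 was 11.8% to 15.3% in cKO libraries, against 4.70% to 7.51% in cHET libraries and 6.15% to 7.84% in controls.

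Atp6v0e, the e1 subunit, present in most tissues, stood at 3964, 3939, 4146 and 4004 in cKO cords, against 2829, 3055, 3041 and 2804 in cHET and 2556, 2324, 2245 and 2771 in control cords at P21. It rose by 0.45 ± 0.06 against cHET (adjusted p = 1.2e-04) and by 0.70 ± 0.06 against control, and by 0.63 ± 0.11 against cHET at P60 (adjusted p = 0.0013). Its paralogue Atp6v0e2, which is the brain form, was at -0.09 and 0.02 (adjusted p = 0.23 and 0.84) and remained the more abundant of the pair in every library. Atp6v0e was 26.0% to 28.8% of the pair in P21 cKO libraries, against 19.4% to 21.8% in cHET libraries and 17.1% to 20.1% in controls. Atp6v0b and Atp6v0c, proteolipids of the proton-carrying ring, were at -0.01 and 0.01 at P21 and 0.13 and 0.11 at P60 (adjusted p from 0.18 to 0.95).

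In the V1 sector 1 of the 8 genes tested rose. Atp6v1g1, the G1 subunit, stood at 3702, 4131, 3939 and 4639.8 in cKO cords, against 3290.3, 3239, 3254 and 3716 in cHET and 3208, 3009, 3026 and 3148 in control cords at P21 and rose by 0.28 ± 0.07 (adjusted p = 0.0086). Library cHET 4 lay just above cKO 1. At P60 the values were 1299.8, 1218 and 1189.6 in cKO cords, against 868, 857 and 962 in cHET and 1023, 773 and 886 in control cords, a rise of 0.46 ± 0.10 (adjusted p = 0.0045). Its neuronal paralogue Atp6v1g2 fell by 0.20 at P21 (adjusted p = 0.041), a call at the threshold that ended with no filter, after quantile normalization, in a fit of only the 2 groups, and without control 2, 3 or 4, cHET 1, 3 or 4, or cKO 1, 2 or 3 (adjusted p 0.053 to 0.125 over these). At P60 Atp6v1g2 was at -0.11 (adjusted p = 0.35). Atp6v1g1 was 42.3% to 45.4% of the pair in P21 cKO libraries, against 34.7% to 36.01% in cHET libraries and 33.7% to 34.9% in controls, and at P60 27.1% to 30.03% in cKO libraries, against 20.2% to 22.9% in cHET libraries and 19.2% to 26.5% in controls.

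**Figure D3:**
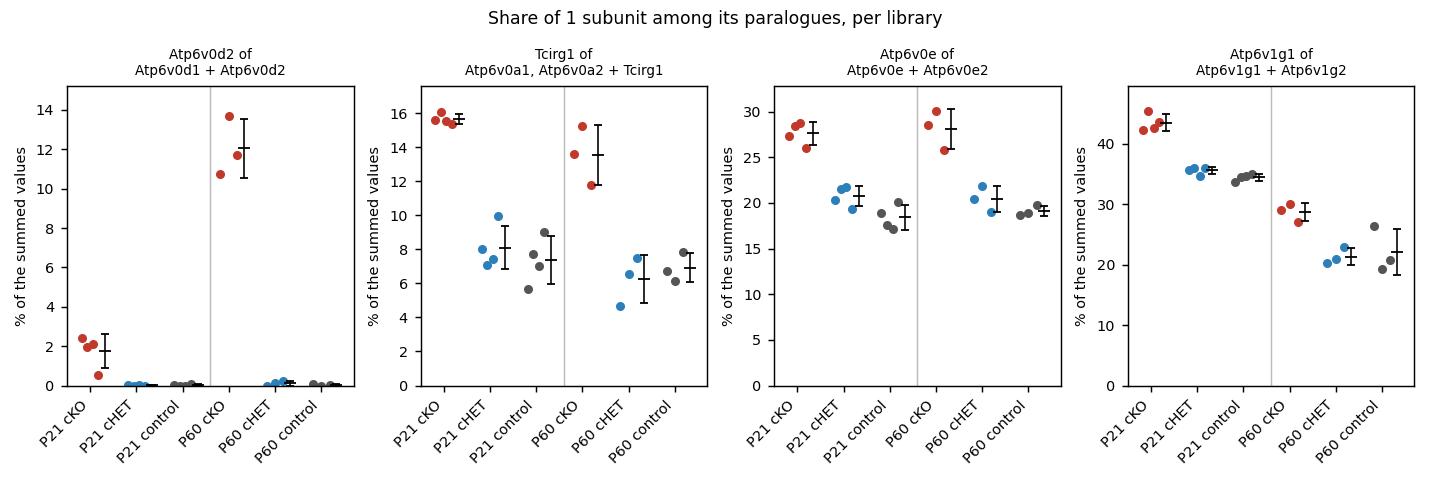
Share of 1 V-ATPase subunit in the summed value of its paralogues (y axes, %, from 0) in every library of the 6 groups (x axis), with the group mean and SD in black. In each panel the cKO libraries of an age lie above the other genotypes, closely so at P60 for Atp6v1g1, with 27.1% in the lowest cKO library against 26.5% in 1 control library.

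Atp6v1a, the catalytic subunit that binds ATP, stood at 8172, 8558, 8396 and 7228 in cKO cords, against 9566, 9527, 9601 and 8738 in cHET and 10621, 9572, 10136 and 9352 in control cords at P21 and fell by 0.21 (adjusted p = 0.023). The cKO libraries lay below all others. The call ended without cHET 1, 2 or 3 or cKO 4 (adjusted p = 0.062, 0.060, 0.065 or 0.052) and after quantile normalization (0.102). At P60 Atp6v1a was at -0.17 against cHET (adjusted p = 0.077; q = 0.042 in the authors' deposited table) and fell by 0.24 against control (adjusted p = 0.017; 0.050 to 0.071 without control 2, control 3, cKO 1 or cKO 2). The other V1 genes tested, Atp6v1b2, Atp6v1d, Atp6v1e1, Atp6v1f and Atp6v1h, lay between -0.11 and 0.03 at P21 and between -0.04 and 0.11 at P60, and none passed the test against cHET. Atp6v1c1, the C1 subunit, was at -0.15 at P21 (q = 0.066) and 0.04 at P60 (q = 0.76) in the authors' deposited table. Of the accessory proteins, Atp6ap2, the prorenin receptor, stood at 3596, 3619, 3849 and 3887 in cKO cords, against 4469.6, 4425, 4256 and 4481 in cHET and 4187, 4174, 4334 and 4146 in control cords at P21 and fell by 0.24 (adjusted p = 0.0014), and at P60 was at 0.00 (adjusted p = 0.99). Atp6ap1 was at 0.02 and 0.00 (adjusted p = 0.76 and 0.99).

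Summed over the class, the 21 hydrolases reached 62230.0, 68992, 69861 and 62571 in the P21 cKO libraries, against 49029 to 50385 in cHET libraries and 49476 to 50896 in controls. The 19 V-ATPase genes summed to 91055 to 99969 in cKO libraries, against 95028 to 99009 in cHET libraries and 92775 to 98057 in controls. The first sums do not overlap between cKO and the other genotypes and the second do. Within the V-ATPase, the P21 V1 sum was 36368 to 39480 in cKO libraries, against 39659 to 40447 in cHET libraries and 38266 to 41928 in controls. The accessory proteins summed to 7926 to 8585, against 8600 to 9029 and 8330 to 8757. Both lay below cHET and overlapped with control at P21. At P60 both overlapped with cHET. The V1 sum was then 17448.5 to 18926 in cKO libraries, against 18003 to 19054 in cHET libraries. The accessory sum was 4024 to 4352, against 4048 to 4225. The V0 sum at P21, 45906 to 51903 in cKO libraries, overlapped with 46214 to 49533 in cHET libraries. The ratio of hydrolases to V-ATPase was 0.626 to 0.757 in P21 cKO libraries, against 0.501 to 0.530 in cHET libraries and 0.519 to 0.538 in controls. At P60 it was 0.693 to 0.740 in cKO libraries, against 0.574 to 0.592 in cHET libraries and 0.549 to 0.572 in controls. The 4 membrane proteins summed to 38456 to 43155 in P21 cKO libraries, against 35753 to 37673 in cHET libraries and 33679 to 35885 in controls.

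**Figure D4:**
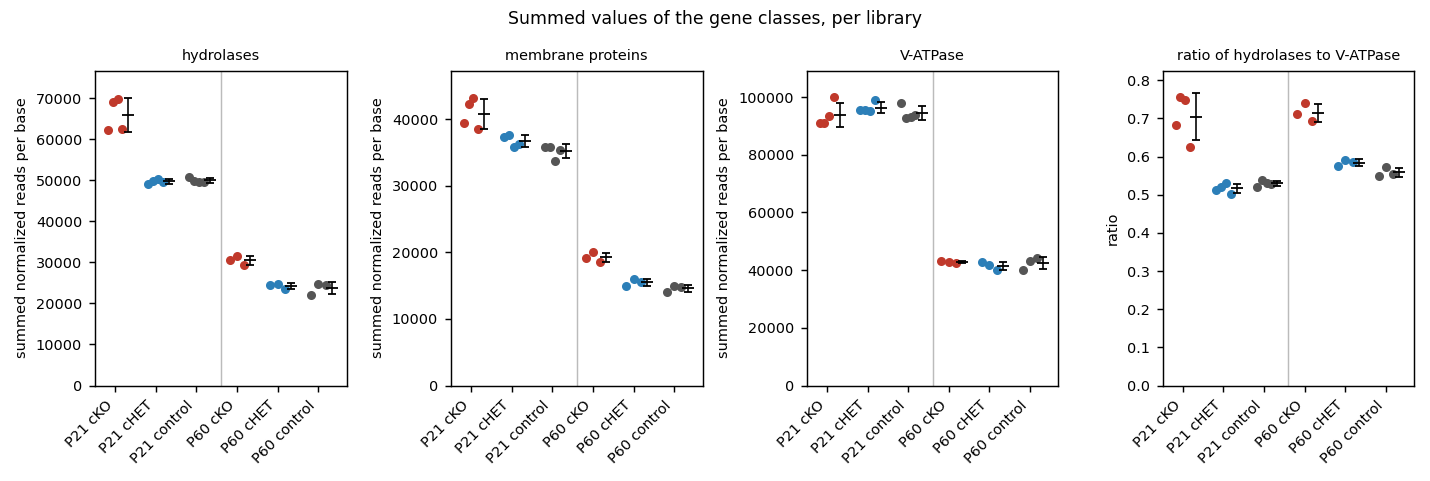
Summed normalized reads per base of the 21 hydrolases, the 4 membrane proteins and the 19 V-ATPase genes, and the ratio of the hydrolase to the V-ATPase sum (y axes, from 0), in every library of the 6 groups (x axis), with the group mean and SD in black. The hydrolase sums and the ratio are higher in all cKO libraries than in the other genotypes of the same age, and the V-ATPase sums overlap.

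The male P21 cKO libraries, 2 and 3, had hydrolase sums of 68992 and 69861 and the female ones, 1 and 4, 62230.0 and 62571. The microglia and macrophage marker sums of the same libraries were 72815 and 70619 for 2 and 3 and 56879 and 54237 for 1 and 4. With 2 mice of each sex this difference was not tested. With sex as a covariate, 23 of the 45 genes were called at P21 in cKO against cHET, 19 higher and 4 lower, and 26 in cKO against control.

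Tfeb, the transcription factor of the list, passed the test against cHET at neither age. At P21 it stood at 319, 288, 286 and 355 in cKO cords, against 349, 354, 367 and 404 in cHET and 337, 354, 301 and 396 in control cords, a difference of -0.24 ± 0.10 from cHET (adjusted p = 0.11; 0.044 without cKO 4 and 0.028 after quantile normalization). At P60 it was 85.2, 73.0 and 76.0 in cKO cords, against 114, 117 and 85.7 in cHET and 101, 91.7 and 98.8 in control cords, a difference of -0.42 ± 0.14 (adjusted p = 0.051). The cKO lay below all cHET libraries there, cHET 3 being the closest, and without cHET 3 the change was -0.57 (adjusted p = 0.010). After quantile normalization it was also -0.57 (adjusted p = 0.013).

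Set against control in place of cHET, cKO cords gave 19 higher and 4 lower genes at P21 (26.9% of all genes were called, 14.6% higher and 12.3% lower) and 22 higher and 3 lower at P60 (25.9%, 14.5% higher and 11.4% lower). These comparisons share the cKO libraries with those against cHET. Among the hydrolases 13 rose and 1 fell at P21 and 14 rose and 1 fell at P60, and among the V-ATPase genes 4 rose and 3 fell at P21 and 5 rose and 2 fell at P60. Lamp1 passed at P21 against control (0.20 ± 0.05, adjusted p = 0.0085), and so did Atp6v0a1 (-0.19 ± 0.05, adjusted p = 0.013). In cHET against control, limma called 0 of the 45 genes at P21 (0.0111% of all genes) and 0 at P60 (0.0178%), and the authors' deposited table called 0 as well at both ages. Unadjusted p was under 0.05 for 1 gene at P21 and 0 at P60. For 4 genes the P21 cHET libraries lay above all controls and for 1 below, against 5.13% of all genes in either direction. The gene with the unadjusted p was Atp6v0e, with 2829, 3055, 3041 and 2804 in cHET against 2556, 2324, 2245 and 2771 in control cords (0.25 ± 0.06, adjusted p = 0.43).

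Side by side, 18 genes rose and 1 (Ids) fell at both ages in cKO against cHET. At P21 alone 4 genes were called (Gla, Atp6v1a, Atp6v1g2 and Atp6ap2), at P60 alone 5 (Idua, Gaa, Lamp1, Scarb2 and Atp6v0a1), and 17 at neither. No gene rose at one age and fell at the other. These genes were called at 1 age, but of them only Scarb2 passed the test of the difference between ages. Across the 44 genes other than Atp6v0d2, the 2 sets of changes had a Pearson r of 0.94 and a Spearman rho of 0.88, given as a description across genes. A further fit left out P60 control 1 and P60 cHET 3, a choice made after the data were seen. Each had the highest mitochondrial share of its group, but P60 cKO 2, with the highest share of all at 17.9%, was kept. In that fit 3 genes passed the interaction test, Scarb2, Atp6ap2 (0.28, adjusted p = 0.020) and Asah1 (0.58, adjusted p = 1.8e-03). The share of 2.71% of all genes belongs to the main fit. The share in the further fit is not given, so its count cannot be set against it.

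Other genes of the lysosome, outside the 46, were drawn from 5 lists by role. Over all genes tested against cHET, 12.6% rose and 9.97% fell at P21, and 13.4% rose and 11.5% fell at P60. Of 24 further hydrolases 11 rose and 1 fell at P21 and 15 rose and 1 fell at P60. Ctsa, the protective protein of Neu1 and Glb1, was at 0.94 and 1.17 in the authors' deposited table. The counts of this list rest on the per-library values, which differ from that table for Ctsa. Arsg, a sulfatase that acts on heparan sulfate, fell, with changes of -1.05 and -1.72. Of 21 further membrane proteins tested, 9 rose and 2 fell at P21 and 10 rose and 2 fell at P60, among them Cd68 (3.42 and 4.03) and Laptm5 (2.35 and 2.12), which are used as macrophage genes, Cd63 (1.32 and 1.58) and Cln3 (0.84 and 0.88).

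Of 15 genes of V-ATPase assembly, paralogues and chloride exchange tested at P21, 1 rose and 4 fell, and of 13 at P60, 2 rose and 2 fell. Clcn6, a chloride-proton exchanger of late endosomes, fell, with changes of -0.34 and -0.43. Ncoa7 and Clcn3 fell at P21, with changes of -0.25 and -0.17 (for Clcn3 the adjusted p was 0.053 without cHET 2) and were at -0.16 and -0.11 at P60. Clcn7, the exchanger of the lysosome itself, was at 0.25 and 0.36 in the authors' deposited table. The counts of this list rest on the per-library values, which differ from that table for Clcn7. Of 14 genes of enzyme delivery 3 rose and 2 fell at each age. Sort1, the sorting receptor sortilin, fell, with changes of -0.53 and -0.64, and M6pr, a mannose 6-phosphate receptor, rose by 0.19 and 0.28. Sumf1, which activates sulfatases, rose by 0.38 at P21 (0.25 after quantile normalization) and was at 0.43 at P60 (adjusted p = 0.061), and Nagpa, which uncovers the mannose 6-phosphate tag, rose by 0.44 at P21 and was at 0.40 at P60 (adjusted p = 0.080).

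Among 16 regulators of lysosomal genes tested at P21, 3 rose and 0 fell, and among 15 at P60, 2 rose and 1 fell. These counts are close to the shares over all genes, 22.6% called at P21 and 25% at P60. The median change of the 16 at P21 was 0.02. Tfe3, of the same family as Tfeb, rose by 0.30 ± 0.06 at P21 and 0.32 ± 0.08 at P60 (adjusted p = 0.0013 and 0.012). Its values at P21 were 2109.9, 2058, 2100.4 and 2234 in cKO cords, against 1705, 1660.5, 1687 and 1862 in cHET and 1875, 1731, 1943 and 1813 in control cords. Fnip2, a partner of folliculin, rose by 0.98 ± 0.09 and 1.49 ± 0.09, with P21 values of 1362, 1381, 1075 and 1113 in cKO cords, against 660.5, 631, 623 and 569 in cHET and 627, 628, 531 and 545 in control cords. Tfec, a family member known from macrophages, was at 21.2, 13.2, 6.19 and 16.1 in cKO cords at P21. It was at 2.05, 0, 0.494 and 1.62 in cHET and 0.984, 2.36, 0 and 4.25 in control cords. Its fitted change of 3.40 (adjusted p = 0.0067) was 1.61 with a pseudocount of 5. Only cKO libraries reached the filter value of 5, so Tfec was tested because it is high there. Its fitted change and adjusted p are therefore no separate support for a rise, and the 3 regulators that rose at P21 include it. Lamtor1, which anchors the mTORC1 platform to the lysosome, was at 0.11 and 0.21 (adjusted p = 0.17 and 0.066; q = 0.026 at P60 in the authors' deposited table).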

How the data were processed

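Whole spinal cord RNA of 21 mice in 6 groups was sequenced, each library from a separate mouse per the labels. The authors deposited a coverage signal for each gene and library (normalized scaled reads per base, scaled within each age) and tables of their own comparisons with p-values, q-values and effects on the natural log scale, which were divided by ln 2 here. The submitters' processing notes name kallisto 0.43.0, sleuth 0.28.1 and GRCm38. P21 libraries were made with a TruSeq kit and P60 libraries with a NEXTflex Rapid Directional kit, per the labels. Because the deposited signal is not a count, sequencing depth is unknown and no count test was run.

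The values, as log2(value + 0.5), were tested with limma 3.58.1 in R 4.3.3 (two-sided moderated test with a mean-variance trend), the 3 genotypes of an age in 1 fit, and all 6 groups for the difference between ages. Genes had to reach 5 in at least 4 libraries at P21, 3 at P60, or 3 of 21 for the difference between ages. Simulated data with 200 changed genes were used to test the fit. Other scalings, filters, pseudocounts, fits and sets of libraries were tried, and their effect is given at the end. The 46 genes and all other lists were chosen with earlier results of these data known. All 46 are described. From each other lysosomal list the text names up to 4 genes with the smallest p in P21 and up to 2 in P60 cKO against cHET, from the microglia, neuron and oligodendrocyte markers the 3 with the smallest P21 p, and Tardbp and Cnp as checks. Some genes that this rule names are not reported here. The values of Ctsa and Clcn7 differ between the deposited files, so theirs are taken from the authors' tables. The counts of their lists come from the limma fits of the per-library values.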

Additional observations from a re-analysis of the deposited data

Results flagged for a closer look

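In each P21 group of 4 libraries, the highest and lowest value of every gene was set against its neighbour by Dixon's ratio, over 135 pairs of gene and group. Chance flags about 1 in 20 groups, and 12 values stood apart from the other 3 of their group.

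Of these 12, 7 were in replicate 4 of the cKO or cHET. Ids was 6108 in cKO 4, against 7144 to 7346 in the other cKO libraries, and 7641 in cHET 4, against 8671 to 8762. Atp6v1e1 was 5801 in cKO 4, against 4820 to 4935, and 5639 in cHET 4, against 5234 to 5271. In cHET 4, Atp6v1a was 8738 (others 9527 to 9601) and Atp6v1g1 was 3716 (others 3239 to 3290.3). In cKO 4, Fuca1 was 1016 (others 871 to 887). These libraries had the highest mitochondrial share of their groups, 8.12% for cKO 4 and 7.53% for cHET 4, whose part in these values was not tested.

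Of the rest, Idua was 1688 in cKO 2 (others 1382 to 1421). In control 3, Lamp1 was 19739 (others 20968 to 21043) and Lamp2 was 5475 (others 5794 to 5853). Atp6v1f was 2270.1 in control 2 (others 2535 to 2567), and Atp6v0d2 was 4.23 in control 4 (others 0 to 0.693).

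The change of Scarb2 in cKO against cHET was larger at P60 than at P21 by 0.32 on the log2 scale in the interaction test (limma, adjusted p = 0.036).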

How the results depend on the processing

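The number of the 45 genes called in cKO against cHET ran from 21 to 25 at P21 and from 21 to 26 at P60 over the alternatives tried, and against control from 22 to 28 at P21 and from 22 to 27 at P60. In cHET against control it was 0 in every alternative run at both ages. Of 96 calls, 15 were lost in at least 1 alternative and 0 changed sign. Of 219 values not called, 21 were called in at least 1 alternative and 70 changed sign. The difference between ages, with 1 gene called, gave 0 genes with no filter on low values, 0 after quantile normalization, 2 with a mean of at least 50, and 0 to 2 without single libraries. It gave 3 without P60 control 1 and cHET 3, a removal chosen after seeing the data, and the cause was not tested. The share of all genes called in that fit is not given. Sequencing depth is unknown, so no limit of detection can be given for genes near 0 such as Atp6v0d2. No paired analysis was possible because the labels give no replicate numbers shared between groups, and the numbers used here follow accession order.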
